A study of Mus musculus with 2 samples.

Results

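Mir22, Mir423, Mir652 and Mir744 are 4 mouse microRNA (miRNA) genes that are active in many tissues. They were followed in small RNA libraries of newborn thymus, where precursors from the blood become T cells within a stroma of epithelial and mesenchymal cells and vessels. The 4 genes were picked by name, with no level threshold, as single-locus genes of broad expression with high levels in these libraries, out of 1973 gene identifiers that were counted. Their levels are therefore given as a description, with no test. The whole thymus of 2 newborn pups (0 days old) of strain B6NCrl was sampled, and a single library was made from each pup. Replicate 1 is pup 2 and replicate 2 is pup 3 of the same pregnancy. They form 1 group without treatment or mutation, so no conditions were compared. Pup, dissection, library preparation and depth cannot be told apart in the differences between the libraries, and the sex of the pups was not recorded.

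A miRNA is cut from a hairpin in a longer transcript, first by Drosha in the nucleus and then by Dicer in the cytoplasm. The duplex that remains has a 5p and a 3p strand. Either can be loaded into an Argonaute protein, where the seed, bases 2 to 8 of the mature strand, pairs with target messenger RNAs. Many miRNA hairpins lie in introns of protein-coding genes and are made from the host's own transcript. miR-22 has been studied in heart growth and in blood formation. miR-423 is often used as a reference for normalising PCR measurements of miRNAs. miR-744 has been studied as a repressor of transforming growth factor beta 1, and miR-652 is an X-linked miRNA.

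All 4 genes were matched by symbol to mature sequences in RefSeq (build GRCm38.p6). The sequences are printed because each gene count sums reads of both strands of its duplex, so the values below belong to these pairs and not to 1 arm. Capitals mark the seed.
miR-22-5p: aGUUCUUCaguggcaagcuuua
miR-22-3p: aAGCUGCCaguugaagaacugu
miR-423-5p: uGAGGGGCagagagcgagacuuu
miR-423-3p: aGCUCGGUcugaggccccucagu
miR-652-5p: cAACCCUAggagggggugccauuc
miR-652-3p: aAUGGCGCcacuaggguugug
miR-744-5p: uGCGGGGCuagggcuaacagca
miR-744-3p: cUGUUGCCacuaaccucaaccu

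No seed was shared between the members. Of the 8 mature strands, only miR-423-5p had a seed found in another mature mouse miRNA of the RefSeq table, miR-6921-5p. Its sequence, with the seed in capitals, diverges after that stretch.
miR-6921-5p: uGAGGGGCaugagguaggaagc
Mir6921 had 3 counts in replicate 1 and 0 in replicate 2, so few counted reads with this seed came from that gene. Seeds held by 1 mature sequence are common, at 72.5% of the 1674 distinct mature sequences in that table. None of the 8 strands shared a stretch of 20 bases with another annotated miRNA gene. Outside miRNA genes, such a stretch of miR-22 occurred in transcripts of Mir22hg and Tlcd2, which run through the same place in the genome. Reads that map to several places were tallied apart from genes, and this search found no second annotated miRNA gene that would put reads of the 4 members there. Unannotated copies elsewhere in the genome were not searched.

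The hairpins differ in composition and in where the mature strands sit. They are printed with the mature strands in capitals, 5p first.
Mir22: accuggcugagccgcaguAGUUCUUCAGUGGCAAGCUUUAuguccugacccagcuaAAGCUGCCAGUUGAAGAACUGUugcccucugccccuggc
Mir423: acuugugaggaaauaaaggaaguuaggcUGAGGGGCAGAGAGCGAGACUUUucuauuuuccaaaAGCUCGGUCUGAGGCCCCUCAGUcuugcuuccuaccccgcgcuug
Mir652: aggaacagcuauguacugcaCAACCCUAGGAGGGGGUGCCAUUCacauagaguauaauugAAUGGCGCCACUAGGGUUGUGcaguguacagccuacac
Mir744: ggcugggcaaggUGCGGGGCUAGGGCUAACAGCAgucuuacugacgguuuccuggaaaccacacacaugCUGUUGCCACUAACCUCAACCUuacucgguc
The GC content of the hairpins was 55.8% for Mir22, 51.4% for Mir423, 50.0% for Mir652 and 56.0% for Mir744. The median over the 257 detected genes with a RefSeq hairpin was 50.0%. Among mature strands, miR-423-3p was the richest in G and C at 65.2%, and miR-22-5p the poorest at 40.9%. The predicted minimum free energy of folding was -41.9 kcal/mol for Mir22, -44.8 for Mir744, -49.0 for Mir652 and -51.9 for Mir423. The predicted folds held between 34 base pairs (Mir652) and 38 (Mir744).

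All 4 hairpins lay inside a longer gene of the same strand (GENCODE M21, build GRCm38, mm10). Mir22 (ENSMUSG00000065529.1, chromosome 11, 75463716 to 75463810, plus strand) lay in exon 2 of both annotated transcripts of Mir22hg, its noncoding host gene. It also overlapped exon 2 of 1 of the 4 transcripts of Tlcd2, a noncoding form of a gene for a membrane protein. Mir423 (ENSMUSG00000065518.2, chromosome 11, 77078064 to 77078172, minus strand) sat in intron 1 of Nsrp1, which encodes a splicing regulator of nuclear speckles. The Mir423 hairpin began only 263 bases from the start of Nsrp1, at 0.770% of the host's length. Mir652 (ENSMUSG00000076011.1, chromosome X, 142739000 to 142739097, plus strand) lay in intron 1 or intron 2 of Tmem164, a transmembrane protein gene, depending on the transcript. Its hairpin began 57594 bases from the host's start. Mir744 (ENSMUSG00000076460.1, chromosome 11, 65734733 to 65734832, minus strand) was within Map2k4, a kinase gene of the JNK stress pathway. It fell in intron 3 of the form with the most exons, 11, and the hairpin began 53465 bases from the host's start.

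**Figure D1:**
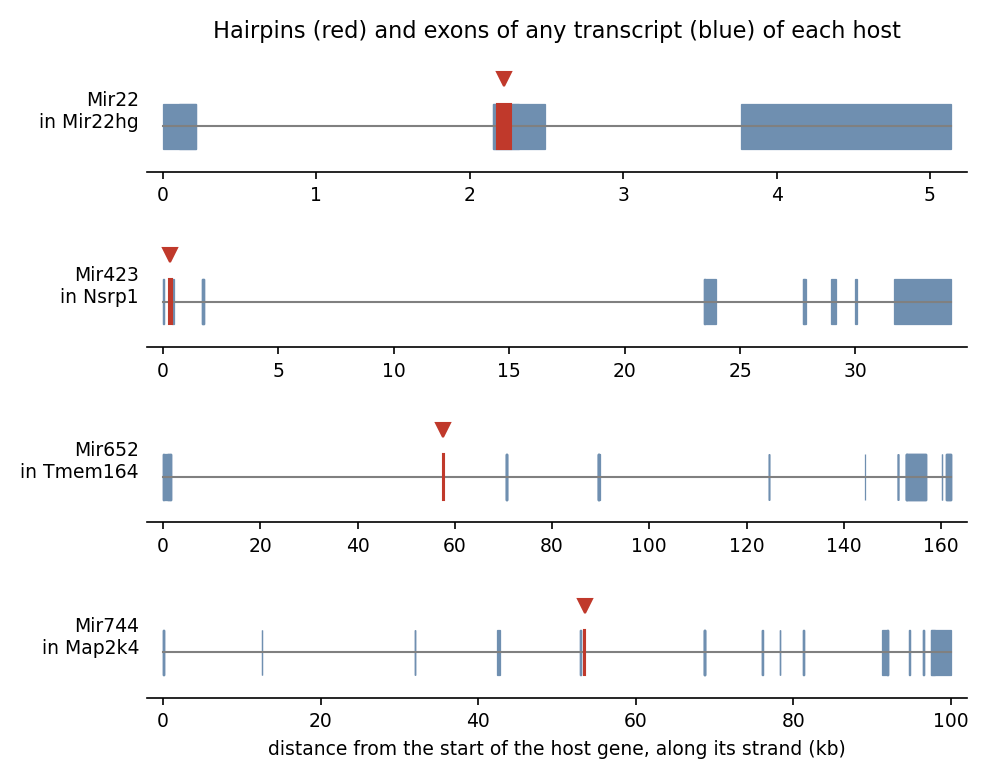
Each panel shows 1 host gene to scale as distance from its start in kb, with exons of any transcript in blue and the hairpin in red under a marker. The Mir22 hairpin lies within an exon of Mir22hg, Mir423 lies next to the start of Nsrp1, and Mir652 and Mir744 lie deep in introns of Tmem164 and Map2k4.

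A host on the same strand was not particular to these genes, since 68.0% of the 294 detected genes had one. A gene is called detected where each library gave it 10 counts or more. An intron alone held 3 of the 4 members and 39.1% of detected genes. An exon held Mir22 and 28.9% of detected genes. Chromosome 11 held 3 of the 4 members against 6.80% of detected genes. On it, Mir22 and Mir423 lay 1.61 Mb apart and Mir744 lay 9.73 Mb from Mir22. No other annotated miRNA gene lay within 50 kb of any of the 4 hairpins, so none of them belonged to a miRNA cluster by that distance. The tables count miRNA genes, so the levels of the host transcripts were not measured here.

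Depth was uneven, with 2734133 counts on the strand of miRNA genes in replicate 1 and 1289151 in replicate 2. Levels are counts per 1000000 of these counts (CPM). A gene at 0 counts could still have up to 3, which equals 1.10 CPM in replicate 1 and 2.33 CPM in replicate 2. Multimapping reads made up 56.3% and 57.5% of all reads. The tissue label was checked against marker miRNAs, summed by cell type. The sums hide markers that differed in opposite directions between the libraries, which are given with the other markers below. The 3 listed thymocyte markers, led by Mir181a-1, summed to 39205 CPM in replicate 1 and 38461 in replicate 2, and the 3 epithelial markers, among them Mir205 of thymic epithelium, to 28564 and 28464. The neural marker Mir124a-1 was listed at 0, which is no check, because its sequence occurs at several loci and multimapping reads were not counted to genes. Reads carry no molecular identifiers in the labels, so all intervals cover counting error only.

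The 4 genes were abundant and close to each other in level. All 4 passed the filter of 10 counts in both libraries, and together they held 2.56% of counts in replicate 1 and 2.97% in replicate 2 (2.77% ± 0.293, SD, n = 2). By mean CPM, they took places 35 (Mir22), 39 (Mir423), 41 (Mir652) and 42 (Mir744) among all counted genes. The median detected gene had 239 CPM. Multimapping reads were not counted to genes, so miRNAs with several loci can stand too low in this ranking. That median can be too low for the same reason, and single-locus genes such as these 4 are favoured. In whole tissue, fewer cells of a type and less RNA per cell cannot be told apart in any of these levels.

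Mir22 was the highest of the 4 in both libraries. It had 20146 counts in replicate 1 and 11438 in replicate 2, equal to 7368 CPM (95% exact Poisson interval 7267 to 7471) and 8873 CPM (8711 to 9037). The mean was 8120 CPM ± 1064, and replicate 2 was the higher library. Mirlet7g, the most abundant gene by gene-strand counts, was 8.35 times higher than Mir22. The opposite strand of Mir142b held still more counts and is not in this ranking.

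Mir423 was the most variable. It had 14339 and 10994 counts, equal to 5244 CPM (5159 to 5331) in replicate 1 and 8528 CPM (8369 to 8689) in replicate 2. With a mean of 6886 CPM ± 2322, its SD was 33.7% of the mean, against 13.1% for Mir22, 12.2% for Mir744 and 4.75% for Mir652. It was the lowest of the 4 in replicate 1 and second to Mir22 in replicate 2.

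Mir652 differed least between the pups. Its 16994 and 8570 counts equalled 6216 CPM (6122 to 6310) in replicate 1 and 6648 CPM (6508 to 6790) in replicate 2, a mean of 6432 ± 306. It ranked 3 of the 4 in both libraries.

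Mir744 was lower in replicate 2. Its 18460 and 7323 counts equalled 6752 CPM (6655 to 6850) in replicate 1 and 5680 CPM (5551 to 5812) in replicate 2, with a mean of 6216 ± 757. It was second to Mir22 in replicate 1 and the lowest of the 4 in replicate 2.

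**Figure D2:**
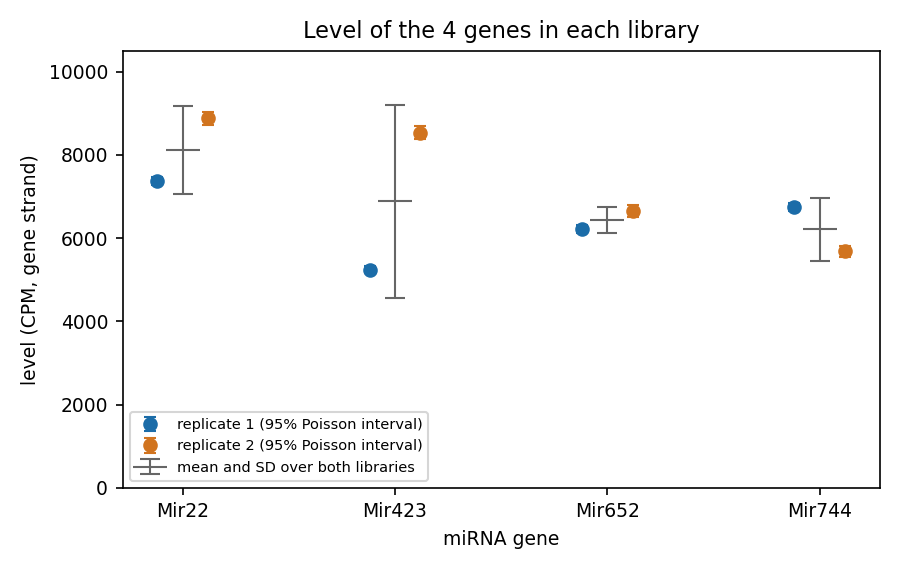
The level of each gene in CPM on the gene strand is plotted for replicate 1 (blue) and replicate 2 (orange) with 95% exact Poisson intervals, and grey bars give the mean and SD over both libraries. Mir423 spans 5244 to 8528 CPM, whereas Mir652 stays between 6216 and 6648 CPM.

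The means of neighbours in the order of the 4 did not differ beyond the spread between libraries. Mir22 exceeded Mir423 by less than the SD of Mir423, as Mir423 did Mir652. Mir652 exceeded Mir744 by 216 CPM, less than the SD of Mir744. The nearest genes above and below in the full ranking were also within the SD of 1 of the pair in all but 1 case. Mir140, a cartilage miRNA in place 34, exceeded Mir22 by 7.80 CPM on the mean, being the higher in replicate 1 and the lower in replicate 2. Mir425 in place 43, at 5439 CPM ± 553, was below Mir744 by 777 CPM, more than either SD, yet in replicate 2 it was the higher of the pair. Per base of the annotated gene (95, 109, 98 and 100 bases for Mir22, Mir423, Mir652 and Mir744), the levels were 85.5 CPM ± 11.2, 63.2 ± 21.3, 65.6 ± 3.12 and 62.2 ± 7.57. On that scale Mir652 stood above Mir423 on the mean. The counts are of reads from the mature strands, so they need not grow with the length of the annotated gene.

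Ratios of counts within a library do not depend on how the libraries are scaled, and they changed order between the pups. Mir423 had 0.777 counts per count of Mir744 in replicate 1 (95% exact interval 0.760 to 0.794) and 1.50 in replicate 2 (1.46 to 1.55). The ratio was thus 1.93 times higher in replicate 2 (exact conditional interval 1.86 to 2.01), the largest change of the 6 pairs. Mir423 over Mir652 went from 0.844 to 1.28, a change of 1.52 times (1.47 to 1.58). Mir652 over Mir744 also crossed 1, at 0.921 in replicate 1 and 1.17 in replicate 2. These 3 pairs were in opposite order in the pups.

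The 3 pairs with Mir22 kept their order. Mir22 over Mir423 was 1.40 in replicate 1 (1.38 to 1.44) and 1.04 in replicate 2 (1.01 to 1.07). Mir22 over Mir652 was 1.19 and 1.33, and Mir22 over Mir744 was 1.09 and 1.56. All 6 intervals of the change between the libraries lay away from 1, the smallest being that of Mir22 over Mir652 at 1.13 (1.09 to 1.17). These intervals compare 2 libraries by counting error and have no replicate check.

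**Figure D3:**
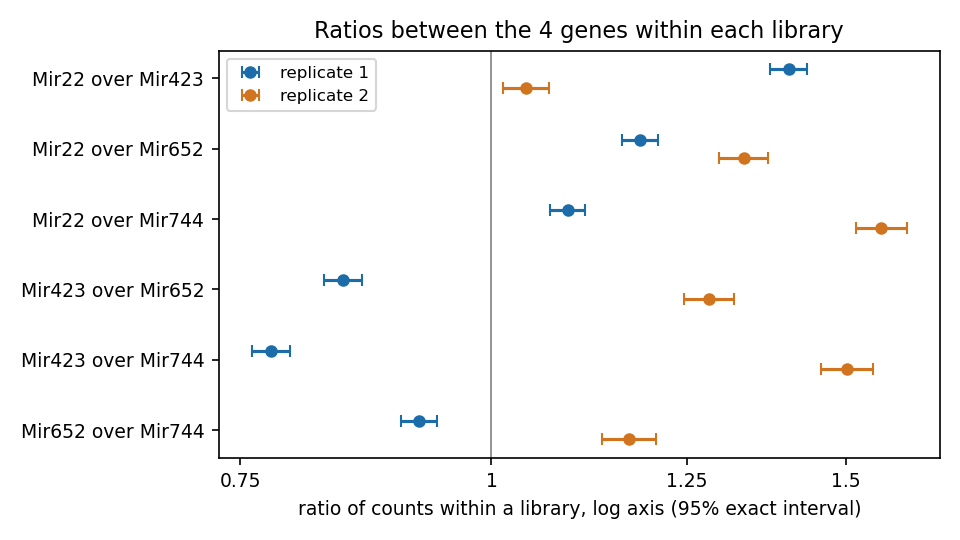
The ratio of counts of 2 genes within a library is plotted on a log axis for replicate 1 (blue) and replicate 2 (orange) with 95% exact intervals. The 3 ratios between Mir423, Mir652 and Mir744 lie on opposite sides of 1 in the 2 libraries, and the 3 ratios with Mir22 as numerator lie above 1 in both.

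The ratio of replicate 2 over replicate 1 was then taken after TMM scaling, which assumes that most genes are equal between libraries. It was tested for all 294 detected genes by a two-sided exact binomial test with Benjamini-Hochberg adjustment. The test called 43.5% of them different, 20.1% higher and 23.5% lower in replicate 2, so a call by this test is common. Calls were more frequent among abundant genes, where the members belong. There, 96 detected genes averaged 1000 CPM or more, and 32 were called higher, 45 lower and 19 not. Of the 4 members, 2 were called higher, 1 lower and 1 was not called. Scaled to total counts, the share of higher genes among all called detected genes was 58.1% rather than 46.1%. The members were chosen with earlier results of these data known, so their p-values below are not independent of that choice.

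Mir423 was higher in replicate 2 by 0.64 on the log2 scale (exact 95% interval 0.60 to 0.67, adjusted exact binomial p = 1.03e-255), a fold of 1.55. Mir22 was higher by 0.20 (0.17 to 0.23, adjusted exact binomial p = 1.67e-31), a fold of 1.15. Mir744 had a log2 ratio of -0.32 (-0.35 to -0.28, adjusted exact binomial p = 5.21e-57), a fold of 0.804. Mir652 had a log2 ratio of 0.031 (-0.0070 to 0.068, adjusted exact binomial p = 0.201) and did not pass. The Mir652 call was set by the scaling. With DESeq2 size factors its ratio was 0.061 (adjusted exact binomial p = 0.00418) and with total counts 0.097 (adjusted exact binomial p = 1.82e-06), so it passed there.

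The binomial test takes counting error as the only spread between pups. The coefficient of variation beyond counting error, estimated in edgeR from these libraries as 1 group, was 0.154. An edgeR negative binomial test with that spread called 0.34% of detected genes and none of the members. The adjusted p by that edgeR test was 0.955 for Mir423 and 1 for Mir22, Mir652 and Mir744. Without adjustment Mir423 had p = 0.0452 by that exact negative binomial test, as 1 of 15 detected genes under 0.05, against 142 by the binomial test. With 1 library a side and a spread estimated from the same difference, this test can call few genes by construction, so it neither upholds nor removes the binomial calls. No replicate check of the differences between these pups could be made.

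Set beside other abundant genes, the Mir423 ratio was far out and the others were not. Among the 96 detected genes whose mean reached 1000 CPM, 1 had a larger absolute log2 ratio than Mir423, namely Mir411 of the imprinted Dlk1-Dio3 region at 0.76. By the same count, 17 genes exceeded Mir744, 37 exceeded Mir22 and 84 exceeded Mir652. Over all 294 detected genes, 29 exceeded Mir423, and the median absolute log2 ratio was 0.21. If Mir423 alone were taken as the reference, the median detected gene would have a log2 ratio of -0.67, against -0.23 with Mir22, -0.061 with Mir652 and 0.29 with Mir744. The 1000 CPM limit was chosen after the ratios were known.

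**Figure D4:**
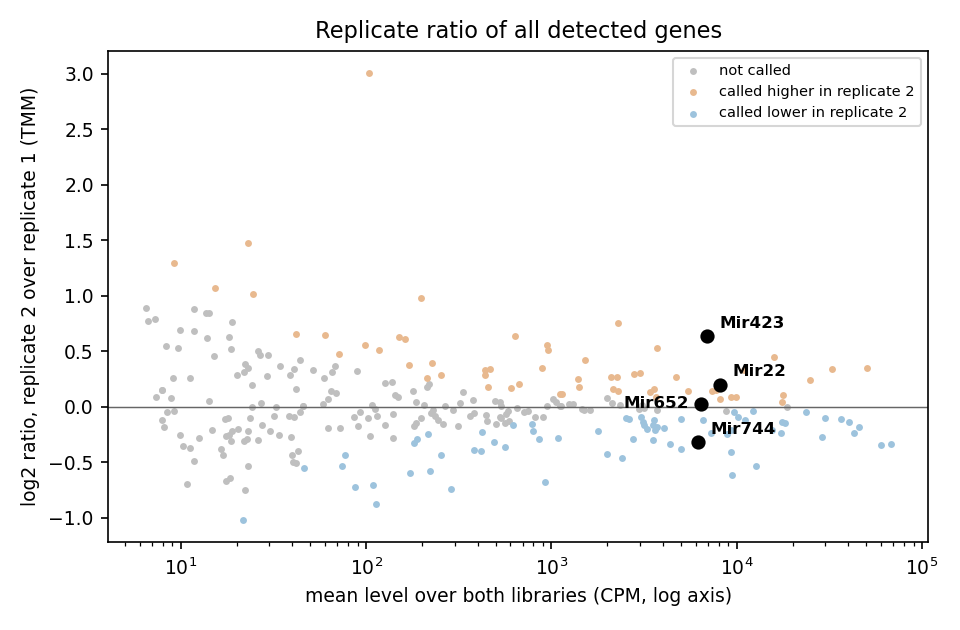
The log2 ratio of replicate 2 over replicate 1 after TMM scaling is plotted against mean level (CPM, log axis) for the 294 detected genes, coloured by the exact binomial call, with the 4 members in black. Mir423 at 0.64 lies above every gene over 1000 CPM other than Mir411, whereas Mir22, Mir652 and Mir744 lie among genes of like level.

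Other miRNAs in use as PCR references were compared by the same ratio, from a list of 15 genes without the members. Of these, 13 were tested, Mir103-1 had too few counts and no counted gene was found under the symbol Mir191. Of the 13, 3 were called higher in replicate 2, 7 lower and 3 not. The test called 20.1% of all detected genes higher and 23.5% lower. Of the 96 genes of at least 1000 CPM, it called 32 higher and 45 lower, so calls are common at such levels. The 13 genes had a median log2 ratio of -0.089 and a median absolute ratio of 0.14, against -0.030 and 0.21 for all detected genes. The 96 genes of at least 1000 CPM, closer to the list in level, had a median absolute ratio of 0.15. The 2 most abundant, Mir26b and Mir30e, had 59990 CPM ± 8045 and 43148 ± 3468, with log2 ratios of -0.34 and -0.23. The highest was Mir484 at 0.31 (0.25 to 0.36), below the interval of Mir423. The lowest was Mir103-2 at -0.72, a gene of 87.0 CPM whose exact interval ran from -1.09 to -0.37. Mir103-1 and Mir103-2, like other listed genes with a second locus, can lose reads to the multimapping tally. Their values may therefore not stand for the miRNA used in PCR.

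**Figure D5:**
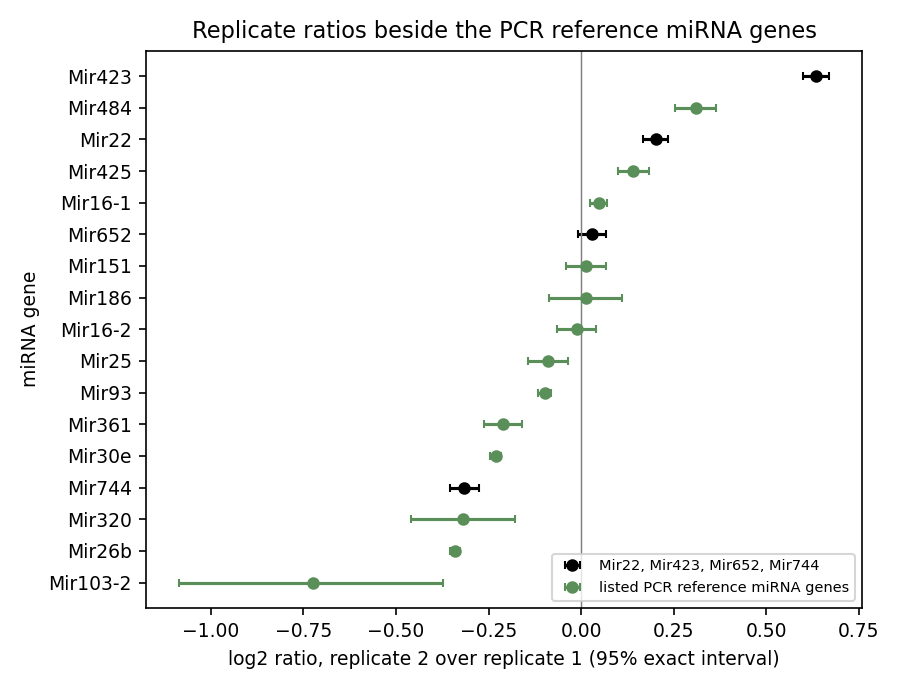
Log2 ratios of replicate 2 over replicate 1 are plotted with exact 95% intervals for the 4 members (black) and the 13 tested PCR reference genes of the list (green). Mir423 at 0.64 has the highest ratio and Mir103-2 at -0.72 the lowest, and Mir652 lies among the genes near 0.

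A second list held 34 single-locus miRNAs thought to lie in introns of protein-coding genes, as Mir423, Mir652 and Mir744 do. It shares 5 genes with the first, and in GENCODE M21 the place in such an intron was found for 23 of the tested genes. Of 32 tested, 8 were called higher in replicate 2, 6 lower and 18 not, where the test called 20.1% of all detected genes higher and 23.5% lower. The other listed genes were not found by symbol among the counted genes. The tested genes had a median log2 ratio of 0.033 and a median absolute ratio of 0.14, against -0.030 and 0.21 for all detected genes. They ranged from -0.36 (Mir671) to 0.51 (Mir874). The 2 most abundant were Mir335, an imprinted miRNA of Mest, with 17639 CPM ± 625 and a log2 ratio of -0.14, and Mir140 with 8128 CPM ± 550 and a ratio of 0.072. The ratio of Mir423 lay above the range of these estimates, and those of Mir652, Mir744 and Mir22 within it. Some of the listed genes had wide exact intervals that include the Mir423 ratio, such as Mir874 (0.23 to 0.79).

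Other genes of the members' chromosomes were read by the same test, which called 20.1% of all detected genes higher and 23.5% lower. Of the 17 other detected genes of chromosome 11, 0 were called higher in replicate 2 by the exact binomial test, 4 lower and 13 not, with a median log2 ratio of -0.030 (0 of them passed upward without adjustment either, and 0 by the negative binomial test). Mir22 and Mir423 were thus the 2 genes of this chromosome called higher. The other genes had a median of 212 CPM and 1 of them exceeded Mir744 in level, so most gave the test far fewer counts than the members did. On chromosome X, 3 of the 33 other detected genes were called higher and 15 lower, with a median of -0.16, where Mir652 had 0.031.

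Genes most like the members in level over the 2 libraries were found by distance in log2(CPM + 1). With 2 libraries of 1 group, this likeness reflects little more than abundance. Mir22 was nearest to Mir140 (distance 0.092) and Mir92-1 (0.10), a gene of the Mir17hg cluster with 7743 CPM ± 829. Mir652 was nearest to Mir375 (0.11), an endocrine and epithelial miRNA with 6561 CPM ± 165, then to Mir130a (0.28). Mir744 was nearest to Mir375 (0.18) and to Mirlet7d (0.34), a let-7 gene with 7303 CPM ± 608. Mir423 had no close neighbour. Its nearest genes were Mir130a at a distance of 0.40, with 7365 CPM ± 758, and Mir92-1 at 0.45.

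Reads at the members lay on 1 strand. All 4 had 0 counts on the opposite strand in both libraries, which allows a share of up to 0.0149% at Mir22 in replicate 1 and up to 0.0410% at Mir744 in replicate 2, the lowest and highest of the 8 limits. That was also the case for 92.5% of detected genes, the largest share over detected genes being 18.5% in replicate 1 and 28.4% in replicate 2. None of the 4 overlapped an annotated gene of the opposite strand, as 14.3% of detected genes did.

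Marker miRNAs differed between the same 2 libraries. The exact binomial test called 20.1% of all detected genes higher and 23.5% lower in replicate 2, so a called marker is common. Thymocyte and epithelial markers were called in both directions. Mir150 (log2 ratio 0.27), Mir205 (0.089) and Mir429 (0.093) were higher in replicate 2. Mir181a-1 (-0.11), Mir181b-1 (-0.70) and Mir200c (-0.41) were lower. The 2 miR-181 markers each have a second gene and can lose reads to the multimapping tally. Of these second genes, Mir181a-2 (0.99, mean 198 CPM) was called higher and Mir181b-2 (-0.61, mean 9475 CPM) lower. By the exact binomial test the heart marker Mir208b, the liver marker Mir122, the mesenchymal marker Mir143 and the endothelial marker Mir126a were called higher in replicate 2, and the red blood cell marker Mir451a and the granulocyte marker Mir223 lower. The heart markers Mir208a and Mir208b summed to 24.1 CPM in replicate 1 and 266 in replicate 2, and Mir208a, with 6 and 105 counts, was not tested. Mir122 had 77.9 and 120 CPM. The mesenchymal sum of 44890 and 59401 CPM came nearly all from Mir143, since Mir145a had 1901 and 2100 CPM and was not called. Mir126a had 28049 and 37298 CPM. The red blood cell sum was 231 and 168 CPM, of which Mir144, with 87.0 and 85.3 CPM, was not called. Mir223 had 919 and 787 CPM, and the 2 skeletal muscle markers summed to 452 and 445. The part of these cell types in the ratios of Mir22, Mir423 and Mir744 was not tested.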

How the data were processed

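The authors deposited 1 table of raw read counts per library, made from short RNA mapped to mm10 and counted over GENCODE M4, per the deposited text files. Aligner: not given in the sources used here. From the values, the 3 unnamed count columns are unstranded, gene strand and opposite strand; the gene strand was used. Rows for unmapped (10.6% and 9.17% of reads), multimapping (56.3% and 57.5%) and unassigned reads stayed out of library sizes and tests. Symbols, positions and hosts came from GENCODE M21, which matched 1894 of 1973 identifiers, and sequences from RefSeq. CPM used the gene-strand total. Scaling was TMM (edgeR 4.0.16, R 4.3.3) and tests were exact binomial (scipy 1.17.1, Python 3.11.15), adjusted at 0.05 over genes with 10 counts or more in each library. They compare 2 libraries, not conditions. The binomial test was tested on simulated Poisson counts without spread between libraries. That run cannot tell whether the calls hold between pups. Folds were predicted with RNAfold (ViennaRNA 2.7.2) on the hairpins.

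The members and lists were chosen with earlier results of these data known. Named genes are the members, the 2 detected genes nearest to each in log2(CPM + 1), the 2 most abundant detected genes of each list, sharers of a seed, overlapping genes and the marker miRNAs. Mir6921, Mir411, Mir425, Mir484, Mir103-2, Mir671, Mir874, Mir181a-2, Mir181b-2 and Mirlet7g were named after their values were seen. Alternatives were the unstranded column, other filters and denominators, DESeq2 1.42.0 size factors, total counts, leaving out the most abundant gene, a pseudocount of 0.5 CPM, values per base, an edgeR negative binomial test and each library alone.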

Additional observations from a re-analysis of the deposited data

How the results depend on the processing

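The order and direction of the members' replicate ratios held under all 7 alternatives, between 0.18 and 0.27 for Mir22, 0.62 and 0.70 for Mir423, 0.012 and 0.097 for Mir652, and -0.33 and -0.25 for Mir744 (log2). The calls did not all hold. Under the negative binomial test Mir22 (0.20), Mir423 (0.64) and Mir744 (-0.32) no longer passed, and that test called 1 detected gene, 1 higher and 0 lower in replicate 2, against 128, 59 and 69 by the binomial test. That test can call few genes by construction, since its spread comes from the same 2 libraries. Mir652 passed with at least 100 counts in both libraries (0.064), with DESeq2 size factors (0.061) and with total counts (0.097). With unstranded counts the levels of Mir22, Mir423, Mir652 and Mir744 were 6946, 5892, 5501 and 5315 CPM, since the denominator is larger. With all reads as the denominator Mir22, Mir423, Mir652 and Mir744 had 2116, 1797, 1674 and 1616 CPM.

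With each library alone, the levels ran from 7368 to 8873 CPM for Mir22, 5244 to 8528 for Mir423, 6216 to 6648 for Mir652 and 5680 to 6752 for Mir744. The 6 ratios between members stayed within 1 SD of their mean per base and with unstranded counts. Replicate 1 alone turned the order of the means of Mir423 and Mir652 (0.844 to 1.28), Mir423 and Mir744 (0.777 to 1.50) and Mir652 and Mir744 (0.921 to 1.17). The 8 nearest genes were the same with a pseudocount of 0.5 CPM. A replicate ratio cannot be had from 1 library. No paired analysis was possible because the libraries form a single group. Precision is limited by 2 pups and not by depth, since every member had 7323 counts or more in each library.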
